A study of Homo sapiens with 12 samples.

Results

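The comparison described here is the response of unstimulated MDA-MB-231 cells to an siRNA against p53: 3 arrays of cells given the p53 siRNA and no TNF were set against 3 arrays of cells given the control siRNA and no TNF, 6 of the 12 arrays of the series. They were chosen by their labels alone, and no measured value entered the choice. MDA-MB-231, derived from a human breast tumour, carries a mutant form of p53, so the siRNA is directed at a mutant and not at the wild-type protein. Cells of all 12 arrays grew in 10% serum, were transfected with siRNA for 48 h and then spent 20 h in medium with 0.1% serum. In the other 6 arrays this last step also held TNF, an inflammatory cytokine, at 10 ng/ml, again with 3 arrays for each siRNA. Total RNA was read on 1-colour Illumina bead arrays, on which each probe gives a fluorescence intensity.

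Wild-type p53 is a transcription factor that halts the cell cycle and starts cell death after damage. Mutant forms lose much of this activity, often accumulate in tumour cells, and have been described as partners of other transcription factors at genes of cell division and metabolism. E2F factors, released from the retinoblastoma protein, turn on the genes for DNA replication, and the genes of mitosis are switched on later through a CHR element near their start sites. Interferon-stimulated genes carry an element known as ISRE, read by STAT and IRF factors, and can hold a basal level without added interferon.

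Levels below are log2 intensities after background correction and quantile normalization, and a change is the mean of the p53 siRNA arrays minus the mean of the control arrays. Each ± is a standard error from a linear model over all 12 arrays, with 3 arrays against 3, and each adjusted p is limma's with Benjamini-Hochberg adjustment over 12507 genes. A gene "rose" or "fell" where its adjusted p was under 0.05. The labels speak of biological replicates and name no cultures, so a p-value here weighs a change against the spread of 3 arrays a group, which may be technical. With 1 p53 siRNA and 1 control siRNA in the labels, effects of the siRNA that do not run through p53 cannot be told apart from those that do. In bulk RNA, fewer cells in a stage of the cell cycle and less RNA per cell cannot be told apart.

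Median raw intensity lay between 226 and 266 on the 12 arrays, and 19810 to 21157 probes were detected on each. Arrays of the other 3 groups correlated with their own group at 0.992 to 0.993 over genes. The p53 siRNA arrays without TNF spread more: replicates 1 and 2 correlated at 0.987, and replicate 3 correlated at 0.974 and 0.977 with them. Replicate 3 differed 2-fold or more from the average of its group's other two arrays on 551 genes, against 209 for replicate 1, 100 for replicate 2 and 23 to 47 for the arrays of the other groups. The median over genes of the SD within the group was 0.26 for the p53 siRNA arrays without TNF, 0.13 for their controls, and 0.13 and 0.11 for the control and p53 siRNA arrays with TNF. Counts over all genes and over each list are therefore given with replicate 3 and without it, where the latter leaves 2 p53 siRNA arrays in a fit over 11 arrays. Of the genes named by rule 279 changed, 263 of them in the same direction without replicate 3, and their values moved by a median of 0.104, with 2 genes moving 1.5-fold or more. For single genes the value without it is printed where it moved most or where a call changed.

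**Figure D1:**
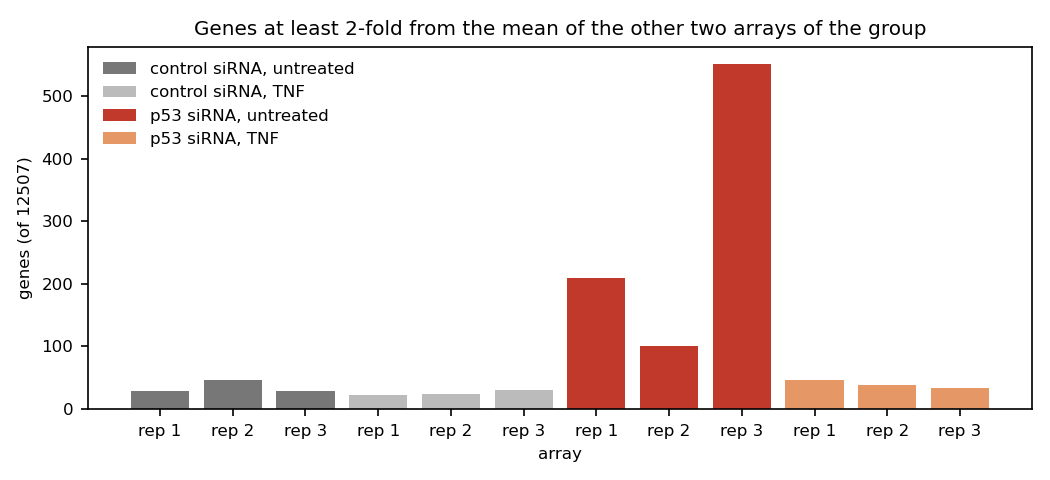
Number of the 12507 genes (y axis) on which each of the 12 arrays (x axis, 1 bar each, coloured by group) lay 2-fold or more from the average of its group's other two. Replicate 3 of the p53 siRNA without TNF stood at 551 genes, and the arrays of the other 3 groups at 23 to 47.

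Of 12507 genes, 4458 changed (35.6%): 2215 rose (17.7%) and 2243 fell (17.9%), and the median change over all genes was 0.01. Every list count below is to be read beside these shares. Changes of 2-fold or more were found for 344 genes that rose and 625 that fell, and of 4-fold or more for 23 and 47. Without replicate 3, 2549 genes rose (20.4%) and 2516 fell (20.1%), and 3998 genes were called in the same direction in both fits with 0 called in opposite ones. The split between rises and falls rests on the quantile step: with arrays scaled only to a common median, 909 genes rose and 2773 fell, and the median gene stood at -0.135. That common median was taken over all 47322 probes. As 41.9% to 44.7% of probes were detected on an array, it lay near background and did not align the detected genes. Fitted on the 6 untreated arrays alone, where the spread of the p53 siRNA group is not averaged with that of the TNF arrays, 2954 genes changed. Of these, 1402 rose and 1552 fell. A list count given for median scaling or for the 6 arrays alone is to be read beside the counts over all genes in that setting. The 3 p53 siRNA arrays did not overlap the 3 control arrays on 5401 genes (43.2%), 4271 of them among the 4458.

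The genes with the largest falls had varied roles. CCNA1, which encodes cyclin A1, read 9.87, 10.01 and 10.06 on the control arrays and 6.40, 6.18 and 6.56 on the p53 siRNA arrays. The groups lay far apart, and its probe was detected on 1 of the 3 p53 siRNA arrays. It fell by 3.60 ± 0.19 (adjusted p = 4.3e-07), a size measured against levels at or near background, and the array that detected it was replicate 3. CHAF1B, a subunit of the factor that loads histones on new DNA, fell by 3.36 ± 0.19 (adjusted p = 6.55e-07), from 10.20, 10.38 and 10.45 to 7.41, 6.69 and 6.86. ICMT, which methylates prenylated proteins such as RAS, fell by 3.06 ± 0.20, with every p53 siRNA array at 8.36 or lower and every control at 10.92 or higher. HPRT1, the purine salvage enzyme often used as a reference gene, read 12.13, 12.20 and 12.22 in controls and 9.49, 9.45 and 9.07 after the p53 siRNA. It fell by 2.85 ± 0.12 (adjusted p = 2.82e-07), the change was -2.71 without replicate 3, and its other probe gave -3.02.

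Others of the 15 largest falls were spread over metabolism, chromatin, signalling and the kinetochore. NNMT, which methylates nicotinamide, fell by 2.79 ± 0.24, and MAOA, which oxidises monoamines, by 2.66 ± 0.24. CDCA7, a chromatin protein induced around S phase, fell by 2.80 ± 0.22, and HELLS, a remodeler that keeps DNA methylation, fell by 2.69 ± 0.19. SPRING1, which is needed for the processing of the sterol regulator SREBP, fell by 2.47 ± 0.18. DENND2A, an exchange factor for Rab GTPases, was detected on all 3 control arrays and on 0 of 3 p53 siRNA arrays, and was at least 4.73-fold lower (adjusted p = 6.55e-07). Probes disagreed in size for SPC25, a kinetochore subunit, at -2.66 and -0.66. TYMSOS, the transcript on the opposite strand of TYMS, fell by 2.43 ± 0.16, close to the fall of 2.20 ± 0.13 for TYMS. Whether its probe reads that strand alone was not tested.

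The largest rises included inflammatory mediators and enzymes of prostaglandin metabolism. PTGS2, the inducible enzyme of prostaglandin synthesis, read 8.17, 8.12 and 8.44 on control arrays and 10.87, 10.65 and 11.37 on p53 siRNA arrays. It rose by 2.72 ± 0.16 (adjusted p = 6.55e-07), by 2.52 without replicate 3, and its other probe gave 2.82. HPGD, which breaks prostaglandins down, rose by 2.51 ± 0.23, from 7.30, 7.79 and 7.52 to 9.41, 10.21 and 10.52. PLA2G4C, a phospholipase A2, was detected on 0 of 3 control arrays and on all 3 p53 siRNA arrays, and was at least 4.44-fold higher (adjusted p = 5.09e-05). IL1A, the cytokine interleukin-1 alpha, was likewise detected on the p53 siRNA arrays alone, at 8.02, 8.70 and 9.41, and was at least 4.84-fold higher (adjusted p = 1.68e-05).

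GDF15, a stress cytokine of the TGF-beta family, rose by 2.49 ± 0.16, with controls between 8.77 and 8.89 and p53 siRNA arrays between 10.93 and 11.59. CITED1, a coactivator of transcription, rose by 2.50 ± 0.15. BMF, a protein that promotes apoptosis by binding BCL2, read 7.50, 7.52 and 7.49 and then 9.92, 9.81 and 9.85, a rise of 2.36 ± 0.12 (adjusted p = 4.3e-07). These 3 genes kept changes of 2.36 to 2.51 without replicate 3. Rises of 2.21 ± 0.21 for CDKN1C, an inhibitor of cyclin-dependent kinases, and of 2.25 ± 0.27 for PDK4, which blocks pyruvate dehydrogenase, were 2.11 and 1.84 without it. PROX1, a homeobox factor, was at least 4.32-fold higher (adjusted p = 1.5e-06) and undetected on the 3 control arrays. CAPN8, a calpain protease, was undetected on the 3 control arrays by its brightest probe, which was at least 5.48-fold higher (adjusted p = 3.61e-06), while its other probes gave 0.95 and 1.0. PAX8, a paired-box factor, likewise gave 2.15 on its brightest probe and 0.54 and 1.07 on its others.

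**Figure D2:**
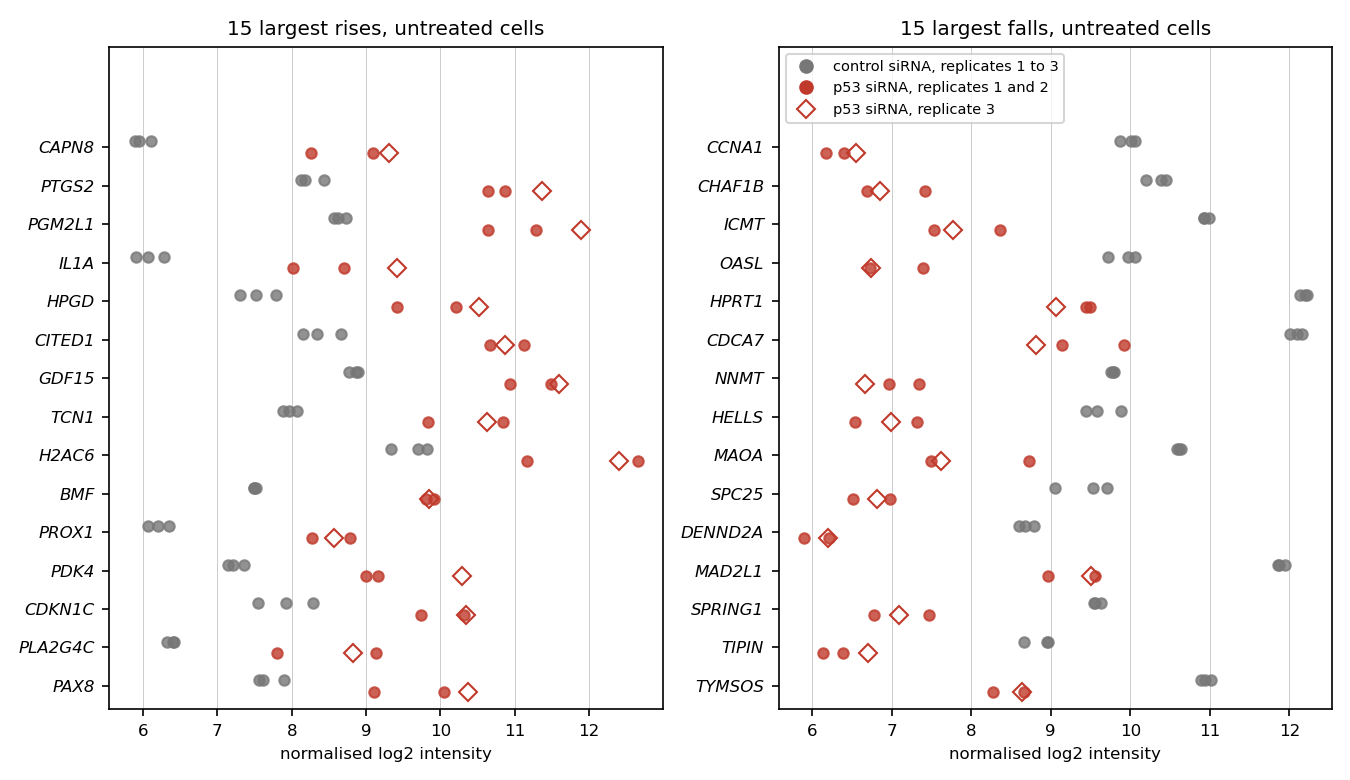
Normalised log2 intensity (x axis) on each of the 6 untreated arrays for the 15 genes with the largest rises and the 15 with the largest falls, 1 point per array, with replicate 3 of the p53 siRNA as an open diamond. The genes were chosen to have groups that do not overlap. The p53 siRNA arrays spread most in H2AC6 (11.16 to 12.65), and the control arrays of CCNA1 read 9.87 to 10.06 against 6.18 to 6.56.

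DNA replication genes fell together. Of 35 measured, 31 fell, 0 rose and the median change was -1.39, beside 17.9% of all genes fallen and a median of 0.01. On 32 of the 35 the 3 p53 siRNA arrays lay below all 3 controls, and 26 were 2-fold or more lower. Over all genes, the groups did not overlap, in either direction, on 43.2%, and 625 of 12507 fell 2-fold or more. The list median was -1.20 on replicate 1, -1.53 on replicate 2 and -1.41 on replicate 3, each against the control mean. Without replicate 3, 31 fell and the median was -1.35.

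Among the factors that load and fire the replicative helicase, MCM6, a subunit of the helicase itself, read 12.77, 12.78 and 12.79 on controls and 10.85, 10.38 and 10.03 on p53 siRNA arrays. It fell by 2.36 ± 0.17 (adjusted p = 2.45e-06), and by 2.17 without replicate 3. GINS2 and CDC45, which complete the active helicase, fell by 2.23 ± 0.18 and 2.14 ± 0.18. MCM10, which helps to fire origins, fell by 2.22 ± 0.18. CDT1, which loads the helicase at origins, read 11.11, 11.37 and 11.19 on controls, and 9.90, 9.44 and 7.69 on p53 siRNA arrays. Replicate 3 was the lowest of them by far, and the fall of 2.21 ± 0.40 (adjusted p = 0.00127) became 1.55 (adjusted p = 4.31e-05) without it. At the fork, POLE2, a subunit of the leading-strand polymerase, fell by 2.02 ± 0.11 from 11.51, 11.57 and 11.56 to 9.73, 9.47 and 9.37. PRIM1, the primase that starts each strand, fell by 1.99 ± 0.14, and TIPIN, which steadies stalled forks and was detected on 1 of the 3 p53 siRNA arrays, by 2.45 ± 0.16. RPA2, which coats single-stranded DNA, did not pass the test at -0.32 ± 0.13. ORC6, an origin subunit, stood near the top of the scale at 16.01 to 16.14 on its brightest probe and gave -0.02, while its other probe gave -1.11.

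The start regions of 3 fallen replication genes are shown because each carries a match to an E2F pattern, in capitals. Sequences are RefSeq's, GRCh38.p14, read 5′ to 3′ on the gene's strand: MCM6 at chr2:135876476-135876575 (minus), GINS2 at chr16:85688955-85689054 (minus) and CDT1 at chr16:88803689-88803788 (plus).
MCM6: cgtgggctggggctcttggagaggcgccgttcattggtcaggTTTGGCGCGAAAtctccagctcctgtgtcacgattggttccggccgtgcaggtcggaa
GINS2: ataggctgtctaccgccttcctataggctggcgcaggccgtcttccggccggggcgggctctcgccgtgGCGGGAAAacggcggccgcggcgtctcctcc
CDT1: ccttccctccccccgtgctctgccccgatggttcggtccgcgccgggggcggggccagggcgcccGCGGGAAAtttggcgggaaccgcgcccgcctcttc

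Each stretch of 100 bases was cut around the match nearest to the gene's start within the RefSeq promoter window of 250 bases before to 50 after the start. The patterns searched on both strands were TTTCCCGC, TTTCGCGC, TTTGCCGC and TTTGGCGC, and the capitals of MCM6 hold matches on opposite strands that overlap. Of 29 fallen replication genes with a RefSeq promoter, 16 held a match (55.2%), against 5.35% of 9985 promoters of tested genes and 3.33% of all 27305. Over all measured replication genes, fallen or not, it was 16 of 31 (51.6%). A match is a description of letters and does not show that a factor binds. TIPIN, MCM10, CDC45, POLE2 and PRIM1 had no match upstream of their start.

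Enzymes that make nucleotides also fell. Of 21 measured, 16 fell, 0 rose and the median was -0.78, the same as without replicate 3. TYMS, thymidylate synthase, read 13.45, 13.50 and 13.68 on controls and 11.61, 11.16 and 11.26 after the p53 siRNA, and fell by 2.20 ± 0.13 (adjusted p = 6.55e-07). The subunits of ribonucleotide reductase, RRM2 and RRM1, fell by 2.01 ± 0.22 and 1.30 ± 0.13. TK1 and DCK, the salvage kinases for thymidine and deoxycytidine, fell by 1.97 ± 0.21 and 1.21 ± 0.14. CTPS1, which makes CTP, fell by 1.38 ± 0.12. DUT, which clears dUTP, fell by 1.37 ± 0.14 on its brightest probe, but its other probes ranged from -1.48 to 0.29. SHMT2, a mitochondrial enzyme of folate metabolism, stood at -0.02 ± 0.09 and did not pass the test.

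Chromatin assembly and DNA repair genes moved the same way. Of 22 chromatin genes 15 fell, 1 rose and the median was -0.97, and without replicate 3, 17 fell at a median of -0.93. UHRF1, which guides maintenance methylation of DNA, fell by 1.94 ± 0.18, and CENPA, the histone of centromeres, by 1.63 ± 0.13. ASF1B, a histone chaperone, fell by 1.84 ± 0.29, or by 1.40 without replicate 3. SUZ12, a Polycomb subunit, gave -0.12 ± 0.11 and did not pass the test. Of 21 repair genes 16 fell, 1 rose and the median was -1.23, or -1.17 without replicate 3. EXO1, a nuclease of mismatch repair and end resection, fell by 2.24 ± 0.16 from 10.62, 10.31 and 10.47 to 8.57, 8.25 and 7.87. CHEK1, the checkpoint kinase of replication stress, fell by 1.75 ± 0.17, BLM, a helicase, by 1.72 ± 0.24, and FANCI, of the crosslink repair pathway, by 1.55 ± 0.14. ATM, the kinase that answers double-strand breaks, gave -0.15 ± 0.14 and its groups overlapped.

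Regulators of entry into S phase were mixed. Of 24, 12 fell (50%) and 3 rose (12.5%), beside 17.9% and 17.7% of all genes, with a median of -0.41 that was -0.30 without replicate 3. Besides CCNA1, E2F2, an activating E2F factor, read 10.64, 10.58 and 10.54 on controls and 9.17, 8.09 and 7.31 on p53 siRNA arrays. The fall of 2.39 ± 0.33 (adjusted p = 0.000202) was 1.95 without replicate 3. E2F8, a repressing E2F factor, was detected on all 3 control arrays and 0 of 3 p53 siRNA arrays and was at least 2.13-fold lower (adjusted p = 1.15e-05). CDC25A, the phosphatase that activates CDK2, fell by 1.5 ± 0.19, and CCNE1, cyclin E1, by 1.48 ± 0.18. CCNA2, the cyclin A of dividing somatic cells, fell by 1.30 ± 0.12. CCND1, cyclin D1, was among the brightest genes at 14.73 to 15.18, and its change of 0.10 ± 0.13 did not pass the test.

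Genes of the G2 phase and mitosis formed another group that fell. Of 36 measured, 31 fell and 0 rose, at a median of -1.07, and without replicate 3, 32 fell at a median of -1.01. On 32 genes the 3 p53 siRNA arrays lay below all 3 controls, while 43.2% of all genes had groups that did not overlap in either direction. MAD2L1, of the spindle checkpoint, fell by 2.55 ± 0.15 on its brightest probe and gave -1.02 on its other. CDK1, the kinase that drives mitosis, fell by 1.86 ± 0.17 (adjusted p = 1.09e-05), with every control at 12.43 or higher. AURKB, an Aurora kinase that corrects the attachment of chromosomes, read 11.80, 11.99 and 11.93 on controls and 10.34, 10.03 and 9.89 on p53 siRNA arrays. It fell by 1.82 ± 0.12, and AURKA, which builds the spindle poles, fell by 1.49 ± 0.16. CDC20, which activates the anaphase-promoting complex, read 13.61, 13.22 and 12.22 after the p53 siRNA, below controls of 14.27, 14.55 and 14.48. Its fall of 1.42 ± 0.26 was 1.02 without replicate 3. CDC25B, a phosphatase that activates CDK1, stood at -0.15 ± 0.14 and ECT2, which directs cytokinesis, at -0.22 ± 0.13, and neither passed the test.

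Start regions of CDC20 at chr1:43358869-43358968 (plus) and CDK1 at chr10:60778123-60778222 (plus) are shown for the letters TTTGAA of the CHR element, in capitals, again from RefSeq on GRCh38.p14.
CDC20: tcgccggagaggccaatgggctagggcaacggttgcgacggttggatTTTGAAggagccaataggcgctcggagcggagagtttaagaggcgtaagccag
CDK1: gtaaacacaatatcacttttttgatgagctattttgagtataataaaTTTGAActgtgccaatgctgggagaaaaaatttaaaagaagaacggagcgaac

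In both stretches a CCAAT box lies a few bases after the capitals. Among the other mitotic genes named by rule, MAD2L1, AURKB, CDC25C and NDC80 had no TTTGAA upstream of their start. AURKA and TTK had no RefSeq promoter to search. TTTGAA was found on either strand in 17 of 25 promoters of fallen mitotic genes (68%), against 10.3% of promoters of tested genes and 15.4% of all, and in 0 of 29 promoters of fallen replication genes. CCAAT was found in 19 of these 25 (76%) and in 16 of 29 replication promoters (55.2%), against 36.9% of tested genes. The E2F patterns occurred in 2 of the 25 mitotic promoters (8%). Over all measured mitotic genes, fallen or not, TTTGAA was in 21 of 30 promoters (70%), so it was no more common in those that fell.

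**Figure D3:**
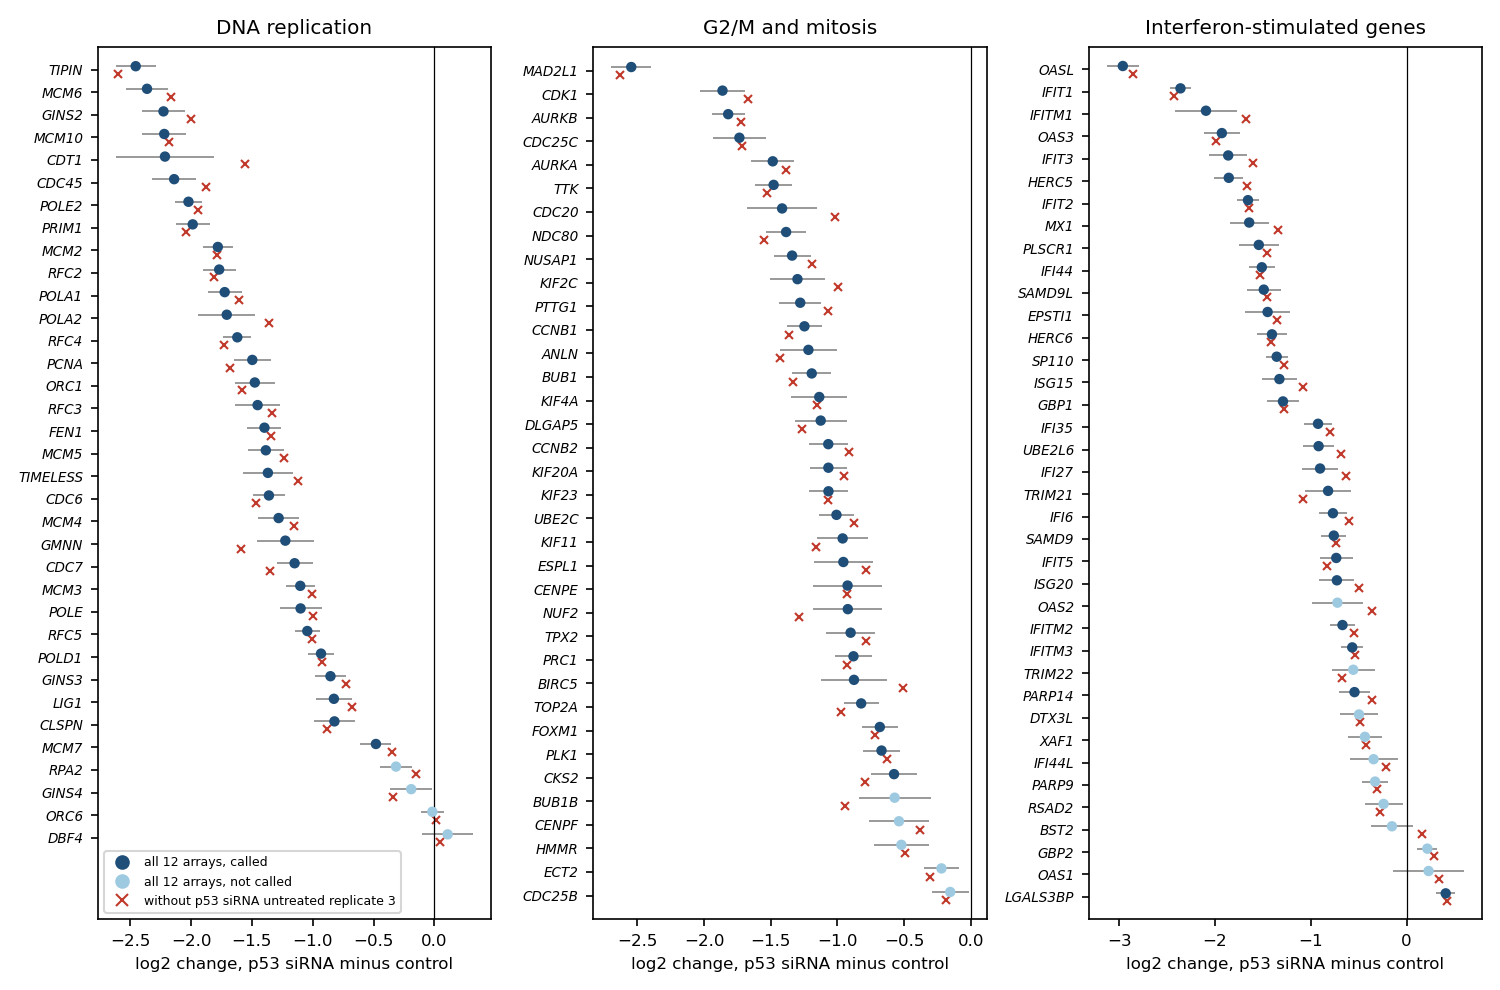
Log2 change (x axis, p53 siRNA minus control) of each measured member of the DNA replication, mitosis and interferon lists, as a dot with its standard error from the fit over all arrays (dark where called) and as a cross without replicate 3. The dots lie left of 0 for all but DBF4 in the first list, for all members of the second, and for all but GBP2, OAS1 and LGALS3BP in the third.

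Interferon-stimulated genes fell without any interferon in the labelled treatments. Of 38 measured, 27 fell, 1 rose and the median change was -0.86. On 30 genes all p53 siRNA arrays lay below all controls, and 16 genes were 2-fold or more lower. Over all genes, the groups did not overlap, in either direction, on 43.2%, and 625 of 12507 fell 2-fold or more. The list median was -0.70, -0.88 and -1.25 on replicates 1, 2 and 3, so replicate 3 lay lowest. Leaving it out gave 27 that fell, 2 that rose and a median of -0.77. OASL, a relative of the antiviral OAS enzymes, read 9.72, 9.97 and 10.06 on controls and 7.39, 6.72 and 6.74 on p53 siRNA arrays. It fell by 2.96 ± 0.17 (adjusted p = 6.55e-07), with -1.81 on its other probe. IFIT1, which binds foreign RNA ends, fell by 2.36 ± 0.11 on its brightest probe, from 11.46, 11.51 and 11.47 to 8.99, 9.10 and 9.26, while its other probe gave -0.34. The related IFIT3 and IFIT2 fell by 1.86 ± 0.20 and 1.66 ± 0.11. MX1, a GTPase that blocks viral replication, fell by 1.64 ± 0.21, HERC5, the ligase for the ubiquitin-like ISG15, by 1.86 ± 0.15, and OAS3, a sensor enzyme of double-stranded RNA, fell by 1.93 ± 0.18. IFITM1, a membrane protein that blocks viral entry, fell by 2.09 ± 0.32, or by 1.67 without replicate 3. GBP2, a GTPase induced by interferon gamma, gave 0.22 ± 0.10 and BST2, which tethers virus particles, -0.15 ± 0.22. Neither passed the test, though GBP2 did without replicate 3, at 0.28 (adjusted p = 0.0328).

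Sequences of 4 fallen interferon genes are shown because they hold the ISRE letters GAAANNGAAA on either strand, in capitals. They are RefSeq's, GRCh38.p14, all on the plus strand: IFIT1 at chr10:89392475-89392574, IFIT3 at chr10:89327830-89327929, HERC5 at chr4:88457000-88457099 and OAS3 at chr12:112938374-112938473.
IFIT1: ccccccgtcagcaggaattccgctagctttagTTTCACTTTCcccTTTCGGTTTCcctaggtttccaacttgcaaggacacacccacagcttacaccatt
IFIT3: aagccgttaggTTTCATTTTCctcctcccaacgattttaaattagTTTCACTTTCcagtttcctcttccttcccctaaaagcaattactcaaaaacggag
HERC5: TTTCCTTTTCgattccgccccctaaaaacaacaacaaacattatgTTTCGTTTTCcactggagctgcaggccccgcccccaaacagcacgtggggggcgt
OAS3: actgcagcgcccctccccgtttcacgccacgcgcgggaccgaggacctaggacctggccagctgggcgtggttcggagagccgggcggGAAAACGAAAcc

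The letters occurred in 19 of 24 promoters of fallen interferon genes (79.2%), against 2.95% of promoters of tested genes, 3.65% of all promoters and 0 of the fallen replication and mitotic genes. E2F patterns were found in 1 of these 24 (4.17%). Over all measured interferon genes, fallen or not, the ISRE letters were in 23 of 32 promoters (71.9%). MX1 had no match upstream of its start.

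The sensors and factors that feed this response fell less evenly. Of 27, 13 fell and 1 rose, at a median of -0.35, with 11 and 2 at -0.31 without replicate 3. The falls were 8 without control replicate 1, without p53 siRNA replicate 2, and with the 6 untreated arrays alone. CGAS, the sensor of DNA in the cytosol, read 9.84, 9.84 and 9.70 on controls and 8.17, 8.03 and 7.96 on p53 siRNA arrays, and fell by 1.74 ± 0.11 (adjusted p = 8.82e-07). STING1, the adaptor that CGAS signals to, fell by 1.21 ± 0.14. DHX58 and TLR3, which act in the sensing of double-stranded RNA, were undetected on all p53 siRNA arrays and at least 2.27-fold and 2.03-fold lower (adjusted p = 2.66e-05 and 0.000167). IRF1, a transcription factor of this response, fell by 1.20 ± 0.24, or by 0.81 without replicate 3, whose level of 10.51 lay below 11.73 and 11.61 on the other two arrays.

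Of 20 genes of class I antigen presentation 7 fell (35%) and 4 rose (20%), beside 17.9% and 17.7% of all genes, and 9 did not pass the test. The share of rises was thus near that of all genes. The list median was -0.14, with 7 falls and 3 rises at -0.03 without replicate 3. The rises were 1 with median scaling, with the 6 arrays alone or without control replicate 3, and 2 without control replicate 1 or 2. The peptide transporters TAP1 and TAP2 fell by 1.71 ± 0.18 and 1.85 ± 0.19. The immunoproteasome subunits PSMB9, PSMB10 and PSMB8 fell by 1.91 ± 0.27, 1.06 ± 0.26 and 0.98 ± 0.15. TAPBP, which links the transporter to class I molecules, rose by 0.78 ± 0.13. B2M, the light chain of class I, gave 0.06 ± 0.12 and HLA-B, a heavy chain, 0.24 ± 0.13, both with overlapping groups. Heavy-chain genes resemble each other closely, so the HLA-B probe may read its relatives too.

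Cytokine and chemokine genes rose more often than they fell. Of 24 measured, 8 rose and 1 fell, beside 17.7% and 17.9% over all genes, and without replicate 3, 8 rose and 3 fell. With probes detected on all 12 arrays, 12 of these genes were measured, of which 4 rose and 1 fell. IL1B, interleukin-1 beta, read 7.94, 8.23 and 8.08 on controls and 10.21, 10.25 and 10.06 after the p53 siRNA. It rose by 2.09 ± 0.11 (adjusted p = 4.3e-07), and its 2 groups lay far apart. The neutrophil chemokines CXCL1 and CXCL8 rose by 1.46 ± 0.21 and 1.45 ± 0.14, and CXCL2 was at least 2.04-fold higher (adjusted p = 0.00051). CSF1, the growth factor of macrophages, rose by 1.80 ± 0.18. IL15, which sustains lymphocytes, fell by 0.84 ± 0.15. Of 25 regulators of NF-kB, which drives many of these genes, 7 rose and 2 fell, or 9 and 3 without replicate 3. With median scaling 1 rose and 3 fell, with the 6 arrays alone 4 and 0, and the falls were 0 without control replicate 1 or 2 or p53 siRNA replicate 1. RELB, a subunit, rose by 0.80 ± 0.12, and NFKBIA, an inhibitor that NF-kB itself induces, by 0.46 ± 0.12. NFKBIZ, a nuclear cofactor, rose by 0.71 ± 0.11 on 1 probe and gave 0.01 on its other. The subunit NFKB1 gave -0.25 ± 0.12 and did not pass the test. The median of the NF-kB list, 0.05, turned to -0.01 without replicate 3. With median scaling it was -0.07, where the median over all genes was -0.135.

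Targets of wild-type p53 showed no common direction. Of 25 measured, 7 rose (28%), 6 fell (24%) and the median was 0.17, beside 17.7% and 17.9% of all genes. Without replicate 3, 10 rose, 5 fell and the median was 0.05. Median scaling gave 3 rises and 6 falls, and the 6 arrays alone 6 and 3. SESN1, a sestrin of the stress response, rose by 0.89 ± 0.11 from 7.68, 7.58 and 7.70 to 8.55, 8.44 and 8.65. PMAIP1, which promotes apoptosis, rose by 0.71 ± 0.18, and XPC, which finds damaged bases, by 0.70 ± 0.14. DDB2, its partner in damage recognition, fell by 1.35 ± 0.23, and SFN, a 14-3-3 protein that holds cells in G2, by 0.94 ± 0.19. TNFRSF10B, a death receptor, gave 0.28 ± 0.11 and CCNG1, cyclin G1, -0.08 ± 0.16. Neither passed the test, though TNFRSF10B did without replicate 3, at 0.33 (adjusted p = 0.0363). Among 25 genes that have been reported under the control of mutant p53, 11 fell and 4 rose at a median of -0.10, with the same counts and -0.19 without replicate 3. The rises were 1 with median scaling, with the 6 arrays alone or without control replicate 2, and 2 without control replicate 1 or 3. The falls were led by CDK1, CDC25C, PCNA, CCNA2 and CCNB1, which act in the cell cycle and replication. PCNA, the sliding clamp, fell by 1.5 ± 0.15 and CCNB1, cyclin B1, by 1.25 ± 0.13. PDGFRB, a growth factor receptor of the list, fell by 1.19 ± 0.24, while HMGCS1, of the mevalonate pathway, gave -0.10 ± 0.12 and PTK2, a focal adhesion kinase, -0.10 ± 0.10.

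Some proteasome subunits fell, while most respiratory chain genes did not pass the test. Of 27 proteasome subunits 12 fell and 0 rose, at a median of -0.30. Without replicate 3, 16 fell at -0.33, and with median scaling 19 fell. PSMA2, of the outer ring, fell by 1.29 ± 0.19, and PSMC1, an ATPase of the cap, by 1.05 ± 0.11. Its control arrays read 14.60, 14.68 and 14.63 and its p53 siRNA arrays 13.76, 13.57 and 13.42. Of 28 respiratory chain genes 7 fell (25%) and 0 rose, at a median of -0.19, while 21 did not pass the test. There were 10 falls and 1 rise at -0.17 without replicate 3, but 3 falls with the 6 arrays alone, 4 without control replicate 3 and 11 with median scaling. The largest of these falls was 0.60 ± 0.12, in NDUFA9, a complex I subunit. COX4I1, of complex IV, gave 0.05 ± 0.13 and did not pass the test.

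Lists of lipid, sugar and amino acid metabolism held falls and rises, with no share of rises above the 17.7% of all genes. Of 27 genes of cholesterol and fatty acid synthesis 8 fell (29.6%) and 4 rose (14.8%), beside 17.9% and 17.7% of all genes. The median was -0.09, with 9 and 4 at -0.11 without replicate 3. The rises were 0 with median scaling, and 2 with the 6 arrays alone or without control replicate 1 or 2. INSIG1, which retains the sterol sensor in the ER, fell by 1.54 ± 0.10 from 13.61, 13.55 and 13.60 to 12.19, 11.98 and 11.98. ACLY, which makes cytosolic acetyl-CoA, fell by 0.92 ± 0.12, and SREBF1, a master regulator of lipid genes, rose by 0.73 ± 0.13. Of 29 genes of glycolysis and hypoxia 10 fell (34.5%) and 5 rose (17.2%), beside 17.9% and 17.7% of all genes. The median was -0.22, with the same counts at -0.14 without replicate 3. Median scaling gave 11 falls and 2 rises, and the 6 arrays alone 6 and 4. PFKP, a phosphofructokinase, fell by 0.93 ± 0.18, and SLC2A1, the glucose transporter GLUT1, by 0.73 ± 0.12. ADM, the peptide adrenomedullin, rose by 1.15 ± 0.15 and NDRG1, a hypoxia marker, by 0.96 ± 0.11. CA12, a carbonic anhydrase, fell by 1.26 ± 0.30, or by 0.80 without replicate 3. Of 23 genes of the amino acid response 6 fell and 3 rose, or 5 and 5 without replicate 3. With median scaling 8 fell and 0 rose, without control replicate 3 it was 3 and 1, and with the 6 arrays alone 2 and 1. PSAT1 and PHGDH, of serine synthesis, fell by 1.52 ± 0.14 and 0.84 ± 0.23, the latter by 0.48 without replicate 3. DDIT3, a stress factor downstream of ATF4, rose by 0.62 ± 0.17, while ATF4 itself gave 0.21 ± 0.10 and did not pass the test.

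Of 25 heat shock and NRF2 genes 8 rose (32%) and 6 fell (24%), beside 17.7% and 17.9% of all genes, or 8 and 8 without replicate 3. Median scaling gave 1 rise and 8 falls, beside 909 rises and 2773 falls over all genes. The 6 arrays alone gave 4 and 1, beside 1402 and 1552 over all genes. Leaving out a control array gave 5 to 6 rises and 2 to 3 falls, leaving out p53 siRNA replicate 1 gave 9 and 3, and array weights 5 and 6. HMOX1, which breaks down heme, rose by 1.30 ± 0.20. GCLC and GCLM, the subunits that start glutathione synthesis, went apart, with a rise of 0.50 ± 0.11 and a fall of 0.95 ± 0.10, though the other GCLM probe gave -0.07. Of 21 ER chaperone and unfolded protein genes 3 rose and 3 fell (14.3% each way, beside 17.7% and 17.9% of all genes), or 4 and 3 without replicate 3. Median scaling gave 1 and 8, and the 6 arrays alone 1 and 1. PDIA4, a disulfide isomerase, fell by 1.11 ± 0.20. Of 24 detoxification genes 9 rose and 9 fell, at a median of 0.18 that was 0.13 with undetected genes at their bound. The counts held without replicate 3, at 0.05, and were 5 and 10 at -0.04 with median scaling. ALDH1A3, an aldehyde dehydrogenase, fell by 1.84 ± 0.14 and ALDH3A1, another, by 1.70 ± 0.22. CYP1A1, a target of the aryl hydrocarbon receptor, rose by 1.31 ± 0.15 from 9.37, 9.43 and 9.19 to 10.79, 10.82 and 10.30. Of 25 BCL2 family and death receptor genes 3 rose (12%) and 6 fell (24%), near the 17.7% and 17.9% of all genes. It was 5 and 5 without replicate 3 or without replicate 2. The authors' table and no background correction each gave 5 and 6. Besides BMF, CFLAR, an inhibitor of caspase 8, rose by 1.0 ± 0.12. CASP1, the inflammasome caspase, was undetected on the p53 siRNA arrays and at least 2.23-fold lower (adjusted p = 4.45e-05). BCL2L1, an inhibitor of apoptosis, gave 0.04 ± 0.15 with overlapping groups.

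Genes of TGF-beta and BMP signalling rose more often than they fell under quantile normalization. Median scaling gave 6 rises and 7 falls, beside 909 rises and 2773 falls over all 12507 genes. Of 25 TGF-beta and BMP genes 10 rose and 6 fell, at a median of 0.38, or 9 and 5 at 0.20 without replicate 3. The falls were 3 with the 6 arrays alone, without control replicate 3 or without p53 siRNA replicate 2. The ligands BMP2 and BMP4 rose by 1.49 ± 0.20 and 1.08 ± 0.22, and the receptor TGFBR2 by 0.83 ± 0.10. The inhibitors of differentiation, ID3 and ID1, went apart. ID3 read 6.65, 6.12 and 6.48 on controls and 7.35, 8.78 and 8.15 after the p53 siRNA, a rise of 1.68 ± 0.29. The dimmest detected probe on those controls read 6.39, 6.49 and 6.42, so the size of this rise is measured against levels at or near background. ID1 read 11.35, 11.53 and 11.44 and then 10.49, 10.37 and 9.42, a fall of 1.35 ± 0.23 that was 1.01 without replicate 3. In neither gene did the groups overlap. SMAD3 and SMAD4, which carry the signal to the nucleus, gave -0.03 ± 0.14 and 0.00 ± 0.13.

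Of 33 matrix, integrin and invasion genes 14 rose and 3 fell, at a median of 0.26, and without replicate 3, 16 rose at the same median. With median scaling 9 rose and 4 fell, at 0.08. LOX, which crosslinks collagen, read 9.39, 9.57 and 9.66 and then 10.74, 11.37 and 11.65, and rose by 1.72 ± 0.19 (adjusted p = 3.46e-05). SERPINE2, a protease inhibitor, rose by 1.40 ± 0.15, COL7A1, an anchoring collagen, by 1.22 ± 0.12, and ITGA1, a collagen receptor subunit, by 1.19 ± 0.12. TIMP3, an inhibitor of metalloproteinases, rose by 0.88 ± 0.13, while TIMP2 rose by 1.23 ± 0.12 on 1 probe and gave 0.03 on its other. PLAU, urokinase, fell by 0.94 ± 0.18 from 15.24, 15.21 and 15.43 to 14.86, 14.19 and 14.02. Among 26 YAP and TEAD genes 13 fell and 1 rose, at a median of -0.36, and without replicate 3, 12 and 1 at -0.34. The falls were 7 with the 6 arrays alone and 8 without control replicate 3, and without p53 siRNA replicate 2 there were 9 falls and 2 rises. The targets CCN1, a matrix protein, and F3, tissue factor, fell by 1.10 ± 0.14 and 1.29 ± 0.14. YAP1, the coactivator itself, read 9.57, 9.53 and 10.57 against controls of 10.80 to 10.88, so replicate 3 lay nearest to the controls. Its fall of 0.96 ± 0.22 was 1.30 without that array.

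Of 25 genes of EGFR and MET signalling 4 rose and 4 fell (16% each way, near the 17.7% and 17.9% of all genes), or 4 and 5 without replicate 3. Median scaling gave 1 and 7. There were 2 falls with the 6 arrays alone, when probes were averaged per gene, and without control replicate 2 or 3. HBEGF, an EGFR ligand, fell by 1.04 ± 0.13, and SPRY2, a feedback inhibitor, rose by 0.92 ± 0.15. DUSP6, a phosphatase for ERK, read 13.32, 13.38 and 13.46 on controls, and replicates 1 and 2 of the p53 siRNA lay below them while replicate 3 lay above at 14.43. It stood at 0.02 ± 0.32 with replicate 3 and at -0.48 (adjusted p = 0.0104) without it. Of 17 AP-1 factors 4 rose (23.5%) and 1 fell (5.88%), or 4 and 2 without replicate 3. Median scaling gave 2 and 2, probes detected on all 12 arrays 5 and 0, and leaving out control replicate 1 or 2 gave 3 and 2. BATF3, detected on 1 of the 3 p53 siRNA arrays, fell by 2.02 ± 0.26, and JUND rose by 0.79 ± 0.11, while JUN and FOSL1 gave -0.26 ± 0.11 and -0.08 ± 0.15. Of 29 ribosomal protein genes 2 rose (6.90%) and 1 fell (3.45%), or 2 and 2 without replicate 3. RPL18 stood at -0.01 ± 0.09, its 6 levels of 15.99 to 16.02 lying at the top of the scale.

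Markers of the labelled line and of other cell types were both detected. Of 23 mesenchymal markers with a probe, 15 were detected on all 6 untreated arrays, VIM among them at 15.65 to 15.91, and 3 on none. Of 31 epithelial and luminal markers 12 were detected on all 6, among them the keratins KRT19 at 14.13 to 14.44 and KRT8 at 11.56 to 12.26, and 13 on none, among them CDH1, the adhesion protein E-cadherin, and ESR1, the estrogen receptor. Of 19 measured mesenchymal genes 3 rose and 6 fell, and of 18 epithelial ones 2 rose and 4 fell, or 3 and 7 and 3 and 4 without replicate 3. CAV1, the main protein of caveolae, fell by 0.65 ± 0.13, and KRT7, a keratin, by 1.07 ± 0.16. Of 20 leukocyte markers 9 were detected on all 6 arrays, among them CD74, HLA-DRA, CD68 and LAPTM5 at 11.14 to 13.30, and 8 on none, among them the defining PTPRC and CD3E. Of 20 fibroblast and endothelial markers 5 were detected on all 6, among them ESAM and PECAM1, and 8 on none, among them CDH5 and VWF. The summed intensity of the measured leukocyte markers was 28049 to 29665 on controls and 23171 to 29017 on p53 siRNA arrays. That of fibroblast and endothelial markers was 7283 to 8045 on controls and 4571 to 5670 on p53 siRNA arrays, with 4 genes up and 5 down of 10, or 3 and 5 without replicate 3. Of 12 leukocyte genes 3 rose and 3 fell, or 3 and 1. Among these, LUM, a collagen-binding proteoglycan, rose by 1.74 ± 0.20 and ACTA2, smooth muscle actin, fell by 0.94 ± 0.19. LUM was detected on 2 of the 3 control arrays, so the size of its rise is measured against levels at or near background. The part of other cells in the gene group results was not tested.

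**Figure D4:**
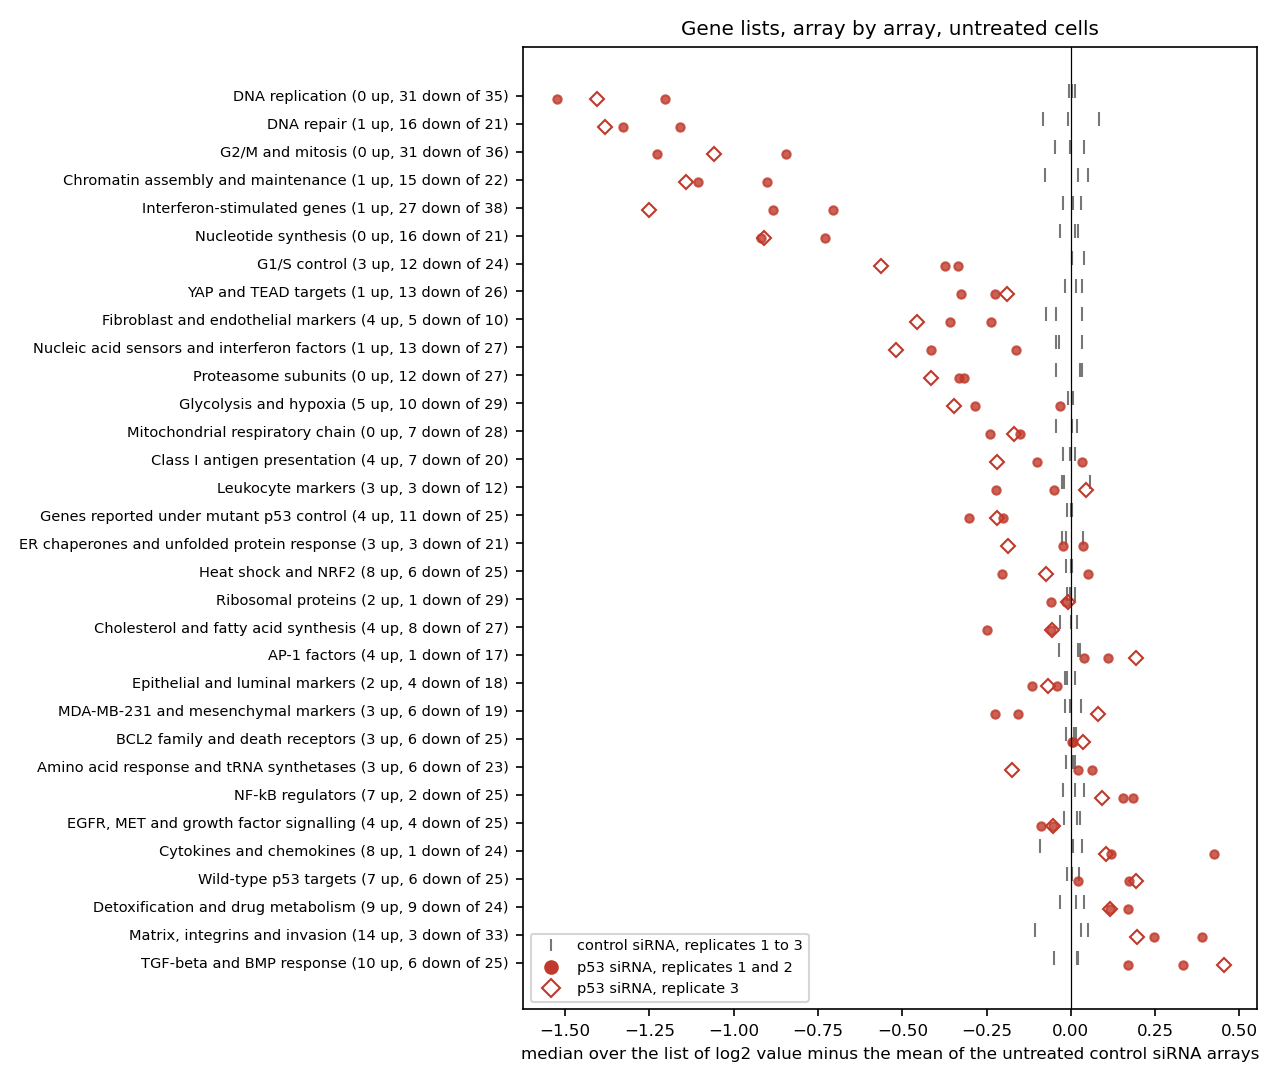
Median over each of the 32 gene lists of the log2 value minus the control mean (x axis), with 1 point for each p53 siRNA array (open diamond for replicate 3) and 1 tick for each control array. DNA replication stands at -1.20, -1.53 and -1.41 on the p53 siRNA arrays, mitosis at -0.84, -1.23 and -1.06, and TGF-beta and BMP genes at 0.33, 0.17 and 0.45.

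Outside the 32 lists, the smallest adjusted p-values belonged to genes of varied roles. ADCY3, an adenylate cyclase, read 10.37, 10.42 and 10.34 on controls and 8.56, 8.43 and 8.40 after the p53 siRNA, and fell by 1.92 ± 0.09 (adjusted p = 4.3e-07). NLRP3, the core of an inflammasome, read 8.31, 8.34 and 8.30 and then 6.35, 6.33 and 6.29 on its brightest probe, which was undetected on all 3 p53 siRNA arrays and at least 3.65-fold lower (adjusted p = 4.3e-07). Its other probes gave -1.88 and -0.41. AUNIP, a partner of Aurora A, fell by 2.15 ± 0.12, CEP78 and CEP20, of the centrosome, by 1.75 ± 0.10 and 1.87 ± 0.12, and PBK, a mitotic kinase, by 1.54 ± 0.10. POLR1H, a subunit of RNA polymerase I, fell by 1.72 ± 0.10. Among the rises were PRSS2, a trypsinogen, at 1.98 ± 0.12, RRAD, a small GTPase, at 2.14 ± 0.15, and RASD1, another, at 1.63 ± 0.12. Trypsinogen genes are near-identical copies, so the PRSS2 value may include its relatives.

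Replicate 3 decided some calls on its own. Leaving it out ended 460 calls and added 1067 over all genes. Of the 353 genes named or drawn by rule, 16 lost their call, 15 gained one and DUSP6 gained one with the opposite sign. The genes on which it lay farthest from the other two arrays included MLXIPL, a sugar-sensing factor, at 9.80, 9.03 and 7.23 on p53 siRNA arrays against controls of 8.96, 9.25 and 9.04. CRTC2, a coactivator of CREB, read 8.84, 8.76 and 10.66 against controls of 8.78 to 8.84, and its change of 0.62 ± 0.37 became 0.00 without that array. CLOCK, of the circadian clock, read 9.95, 9.54 and 7.97, and its value of -0.48 ± 0.37 became 0.11. Neither of these passed the test in either fit. Calls that appeared without replicate 3 included LIFR, a cytokine receptor, whose p53 siRNA arrays read 6.58, 6.73 and 8.28 against 7.92, 7.84 and 8.02 in controls. It stood at -0.73 ± 0.33 (adjusted p = 0.111) with all arrays and at -1.27 (adjusted p = 4.82e-05) without replicate 3. Calls that ended included H2BC6, a histone H2B gene with close copies, at 6.03, 8.04 and 7.75 against controls of 5.76 to 6.25, undetected on all 3 control arrays and at least 1.79-fold higher (adjusted p = 0.0219, and 0.079 without replicate 3). In H2BC6 replicate 1 lay within the control range, so the groups overlapped. MB, which encodes myoglobin, fell by 1.12 ± 0.32 with all arrays and gave -0.79 (adjusted p = 0.0602) without replicate 3.

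The same siRNA contrast under TNF rests on the other 6 arrays, which share none with the comparison above, although all 12 share the model and its estimate of the spread. There 1799 genes rose (14.4%) and 2064 fell (16.5%). Of the genes that rose without TNF, 1315 also rose under it, 59.4% of the untreated rises and 73.1% of those under TNF. For the falls, 1533 were shared, 68.3% and 74.3%. Each untreated p53 siRNA array, replicate 3 included, followed the TNF arrays: over the 2064 genes that fell under TNF the median untreated change was -0.59, -0.72 and -0.72 on replicates 1, 2 and 3. Over the 1799 that rose under TNF it was 0.54, 0.63 and 0.67. The replication list fell in 27 of 35 members under TNF at a median of -0.87, the mitotic list in 29 of 36 at -1.14, and the interferon list in 32 of 38 at -1.05. POLE2 gave -1.21 and PRIM1 -1.14 under TNF, against -2.02 and -1.99 without it. However, 0 of the 35 replication genes passed the test of the difference between the 2 effects.

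The difference between the effects itself was past the threshold for 27 genes (0.216%), 132 without replicate 3, and 1282 genes had an unadjusted p under 0.05. The test was made for the difference gene by gene, and not for whole lists. Of the 27, 13 were also called without TNF. IFIT1 fell by 2.36 ± 0.11 without TNF and by 3.60 under it. For NLRP3 the untreated fall is a bound. The untreated rise of PI3, undetected on the untreated control arrays, is a bound too, and ABCA13 was undetected on every untreated array. For these 3 genes the size of the difference is not known. IL1B rose by 2.09 ± 0.11 without TNF and by 1.22 under it. AKR1C2, a steroid-metabolizing reductase, rose by 1.28 ± 0.16 and by 2.65 under TNF, and MT1E, a metallothionein, by 0.82 ± 0.19 and 2.45. Both have near-identical relatives that their probes may also read. GJA1, the gap junction protein connexin 43, fell by 0.92 ± 0.16 without TNF, from 7.94, 8.24 and 7.66 to 6.88, 6.87 and 7.33, and rose by 0.57 under TNF. TNIP1, which restrains NF-kB, rose by 0.44 ± 0.10 without TNF and fell by 0.65 under it. These 2 were among 8 genes called in opposite directions, with CGB3, ISM1, KCNN4, KCTD12, MCOLN3 and SCRT1. For ISM1, whose untreated rise missed the threshold without replicate 3 (adjusted p = 0.0894), the difference was also called, and for the other five its adjusted p lay between 0.0539 and 0.138.

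**Figure D5:**
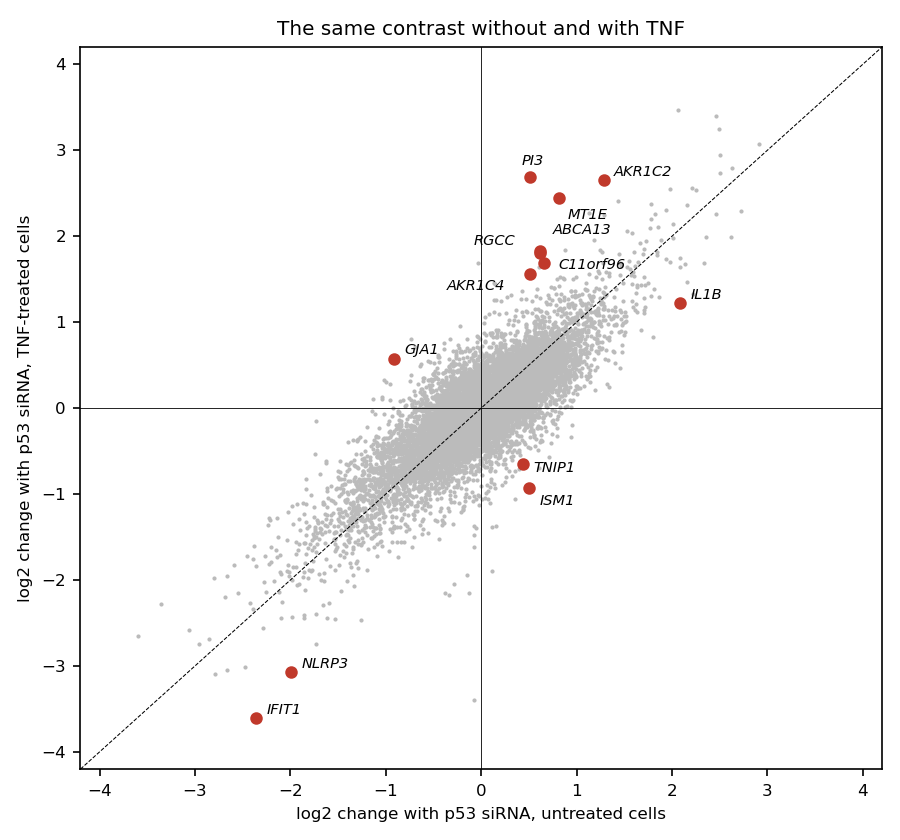
The p53 siRNA effect without TNF (x axis) against that under TNF (y axis), both as log2 changes, 1 point per gene. The 13 genes whose effects differed and that were called without TNF are marked, and the dashed line is equality. Among them ABCA13 was undetected on every untreated array, so its place on the x axis is not a measured change. IFIT1 fell further under TNF, IL1B rose less, and GJA1, TNIP1 and ISM1 lie in opposite quadrants.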

How the data were processed

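RNA of MDA-MB-231 cells was read on 12 Illumina bead arrays, in 4 groups of 3 set by the sample titles. The deposited signal table gives 1 intensity per probe and array, not normalized, with a detection p-value beside it, per the file headers. Per the submitters' processing notes GenomeStudio was used, its version not given. How the software computed the detection p-values, and the genome build of the probes, are not given in the sources used here. The authors' processed table holds intensities on a linear scale with the same median, 241.6, in every column, and served as an alternative.

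Signals were background-corrected from the detection p-values (neqc of limma 3.58.1 in R 4.3.3, offset 16), quantile-normalized and taken to log2. Of 47322 probes, 23079 were kept for being detected (p under 0.05) on 3 or more of the arrays. Names came from the platform table: 30107 probes name 1 gene, 8 several and 17207 none, and 30068 matched RefSeq by Entrez ID. The brightest kept probe stood for its gene, and 3384 of the 12507 genes had several. A mean per group was fitted over the 12 arrays (8 residual degrees of freedom), and contrasts were tested 2-sided with eBayes and Benjamini-Hochberg adjustment. Each "at least N-fold" sets the detected group's mean against, per array, the higher of the dimmest detected probe and the gene's own signal. The files name no slide, scan or batch, so none was tested.

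The members and the 32 gene lists (896 members) were chosen with earlier results of these data known, so list counts are descriptions beside the counts over all genes. Genes were named by rule: the 15 largest rises and falls whose groups do not overlap; in each list up to 8 called members with the largest change and 2 bright ones not called; up to 8 genes a side whose effect differs under TNF; the 10 genes on which replicate 3 lies farthest out; 5 calls lost and 5 gained without it; and the 10 genes a side of no list with the smallest adjusted p. Of these, 353 genes in all, the text gives a selection, and LGALS3BP, DBF4, OAS1 and the genes called in opposite directions were named after their values were seen. The level of the siRNA's own target transcript is not reported here, and its depletion was not checked. The number of arrays limits the precision. In a check on simulated arrays, whose groups all shared the same spread, the fit recovered most of the larger changes that had been set. The p53 siRNA arrays without TNF spread more than the other groups, so this check does not bear on the calls made here. Alternatives were the background correction, the normalization, the authors' table, detection filters, the mean of a gene's probes, the 6 arrays alone, array weights, a replicate block and leaving out each array.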

Additional observations from a re-analysis of the deposited data

Results flagged for a closer look

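For 13 genes called without TNF, the p53 siRNA effect under TNF differed from that without it, by limma's test of the difference (adjusted p under 0.05). The difference, TNF minus untreated on the log2 scale, was 2.17 for PI3, an elastase inhibitor undetected on the 3 untreated control arrays, so that its untreated effect is a bound and the size of the difference is not known. It was 1.63 for MT1E, 1.49 for GJA1, 1.37 for AKR1C2, 1.19 for RGCC, a cell cycle regulator, 1.06 for AKR1C4 and 1.03 for C11orf96. ABCA13, a transporter, gave 1.21 but was undetected on all 6 untreated arrays, so it has no measured untreated change. Negative differences were -1.43 for ISM1, -1.24 for IFIT1, -1.09 for TNIP1, -1.08 for NLRP3 and -0.87 for IL1B. The NLRP3 probe was undetected on the 3 untreated p53 siRNA arrays, so its difference too has no known size. The AKR1C and MT1 genes have near-identical relatives that the probes may also read. No group holds the 4 samples that a test for a single outlying array needs.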

How the results depend on the processing

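The 4458 genes changed without TNF were 3682 to 4688 under median scaling, the authors' table, no background correction, either detection filter, the mean of a gene's probes, array weights (4148) and a replicate block (4354). They were 2954 with the 6 untreated arrays alone. Leaving out single arrays gave 3536 (without control untreated replicate 2) to 5065 (without p53 siRNA untreated replicate 3). Median scaling moved the share of rises among calls from 49.7% to 24.7%. The cause of these moves was not tested. Under TNF, 3863 calls became 5250 with the 6 TNF-treated arrays alone, 5721 with array weights and 2846 to 5055 without single arrays. The share of rises there was 18.8% with median scaling. The 27 genes whose effect differed under TNF were 12 with median scaling, 52 in the authors' table, 50 without background correction, 5 with probes detected on all 12 arrays, 17 with the replicate block, and 11 to 132 without single arrays, 132 without p53 siRNA untreated replicate 3. The labels do not say whether same-numbered replicates belong together. Deviations of same-numbered untreated arrays from their group means correlated at -0.0287, 0.189 and 0.00259, and those of other untreated pairs at -0.152 to 0.134. With so few arrays these values cannot decide whether the samples are paired. Of the 353 named genes, DUSP6 alone changed sign with a call, at -0.48 to 0.33 without single arrays, the lowest without p53 siRNA untreated replicate 3. Over 21 settings the replication list kept 0 rises and 27 to 32 falls, the mitotic list 28 to 33 falls and the interferon list 26 to 30. The 27 were among 30 replication genes measured with probes detected on all 12 arrays. Rises in the chromatin, repair, interferon and sensor lists stayed between 0 and 2. The medians of the NF-kB, EGFR and MET, AP-1, amino acid, BCL2, detoxification, mesenchymal, epithelial and fibroblast lists changed sign under at least 1 setting. Among these settings is median scaling, under which the median over all genes was itself -0.135. Probes below background give bounds only, and probes near the top of the scale cannot show a rise.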
